A study of Mus musculus with 2 samples.

Results

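The neuromuscular junction genes described here are the 5 subunits of the muscle acetylcholine receptor (Chrna1, Chrnb1, Chrnd, Chrne and Chrng) and 5 genes of the machinery that assembles and clears the synapse (Musk, Lrp4, Dok7, Rapsn and Ache). The 10 are defined by a list of names, with no threshold on a measured value, out of the 34745 genes in the count table. All 10 were found by their Ensembl identifiers and all had reads in both libraries. RNA came from the gastrocnemius, a calf muscle, of C57BL/6 mice aged 8 weeks. There were 2 libraries, 1 of genotype Cry2scko and 1 of genotype Cry2flox/flox, here Cry2flox. The labels do not spell out scko, the recombinase or its promoter, and they do not say whether a library holds 1 animal or a pool. Cry2 encodes a repressor of the circadian clock, and in a floxed allele recombinase sites flank the stretch to be removed.

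At the neuromuscular junction the motor axon releases acetylcholine onto a small patch of the muscle fibre in which receptors are packed. Agrin from the nerve binds LRP4 on the fibre, LRP4 activates the kinase MuSK, and MuSK acts with the adaptor DOK7 to bring about clustering of receptors by rapsyn. The receptor is a pentamer of alpha, beta and delta subunits with either a gamma subunit in fetal and denervated muscle or an epsilon subunit in adult innervated muscle. Acetylcholinesterase, held in the synaptic cleft by a collagen tail, ends each signal by splitting the transmitter. In the fibre these genes are transcribed most strongly by the nuclei beneath the synapse, which are a small minority of its nuclei.

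The promoters of 3 receptor subunits are shown because the fetal gamma and the adult epsilon subunit stood far apart in level in these libraries, and the alpha subunit serves both forms of the receptor. Each line holds the 250 bases before a transcript start, taken from RefSeq on GRCm38.p6 and read in the direction of the gene. Capitals mark matches to the E-box, CANNTG, which myogenic factors such as MyoD and myogenin bind, and to the core of the N-box, TTCCGG or its reverse complement CCGGAA, which ETS factors such as GABP bind. Chrne lies on the minus strand at chr11:70619195-70619444, Chrng on the plus strand at chr1:87205561-87205810 and Chrna1 on the minus strand at chr2:73580339-73580588. The Chrng window lies wholly inside the GENCODE span of the gene, which begins at 87204657.
Chrne: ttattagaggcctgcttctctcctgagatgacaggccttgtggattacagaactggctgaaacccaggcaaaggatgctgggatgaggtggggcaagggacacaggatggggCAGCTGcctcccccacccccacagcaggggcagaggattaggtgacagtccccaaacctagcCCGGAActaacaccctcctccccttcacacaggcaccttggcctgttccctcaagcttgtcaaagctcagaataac
Chrng: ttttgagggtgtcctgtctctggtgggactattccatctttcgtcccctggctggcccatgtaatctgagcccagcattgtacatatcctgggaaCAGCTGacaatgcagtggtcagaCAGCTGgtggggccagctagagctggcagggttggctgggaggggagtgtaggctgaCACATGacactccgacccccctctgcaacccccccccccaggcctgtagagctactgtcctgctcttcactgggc
Chrna1: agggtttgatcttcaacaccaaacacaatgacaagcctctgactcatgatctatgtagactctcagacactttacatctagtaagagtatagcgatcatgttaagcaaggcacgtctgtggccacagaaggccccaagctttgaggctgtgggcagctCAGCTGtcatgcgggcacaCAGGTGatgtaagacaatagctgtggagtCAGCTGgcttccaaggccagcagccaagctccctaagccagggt

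Promoter windows were at hand for 7 of the 10 genes, with 2 starts for Dok7 and none for Chrnd, Lrp4 or Rapsn. The N-box core was found in 1 of the 7, Chrne, beginning 76 bases before its start. Of all 32851 promoter windows of this length in the table, 12.0% hold that core on either strand. An E-box was found before at least 1 start of all 7 genes. By window, it was found in each of the 8 except that of the second Dok7 start, where 66.2% of all windows hold an E-box. Chrna1, Chrnb1, Chrng and Musk had 3 E-boxes each, and 12.2% of all windows have 3 or more. Chrne, the first Dok7 start and Ache had 1 E-box each, and the second Dok7 start had none. The windows of Ache and of the second Dok7 start, like that of Chrng, lie inside the GENCODE span of the gene. For both Ache and the second Dok7 start, the bases just after the start were found in 0 annotated transcripts of the gene. The pattern CANNTG is its own reverse complement, so a match on either strand is a match on both, and no E-box here overlapped the N-box core. These are matches to letters in a short window and say nothing of binding in this muscle.

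**Figure D1:**
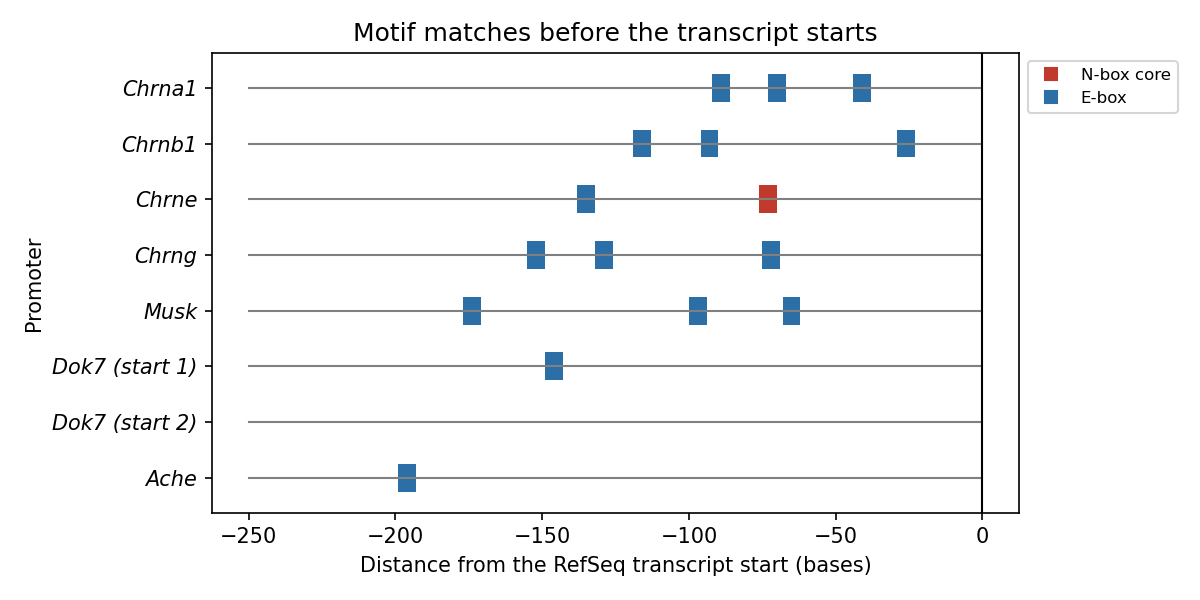
Matches to the E-box (blue) and to the N-box core (red) in the 250 bases before the RefSeq transcript starts of 7 genes, with distance from the start in bases on the horizontal axis and 1 row per promoter. Chrne is the promoter with the N-box core, 76 bases before the start, and Chrna1, Chrnb1, Chrng and Musk carry 3 E-boxes each.

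The total count was 16423884 reads in Cry2scko and 18909433 reads in Cry2flox. CPM is the read count scaled to library size and composition, and a mean of 1 CPM stands for about 16.5 reads in Cry2scko and 18.8 reads in Cry2flox. Cry2 itself had 133 reads in Cry2scko and 676 reads in Cry2flox and was 4.46-fold lower in Cry2scko, a log2 ratio of -2.16 (-2.44 to -1.89). This count covers the whole gene, of which 295 exon bases are shared with D930015M05Rik on the opposite strand. Muscle fibre markers were abundant in both libraries, with summed levels of 125384 CPM in Cry2scko and 130862 CPM in Cry2flox over 9 genes. With 1 library per genotype no difference between animals could be tested, so no p-value is given. Each 95% interval on a ratio, level or share is an exact interval for counting error only. Amplified reads that carry no molecular identifier cannot be taken as separate molecules.

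The log2 ratio is that of Cry2scko over Cry2flox. Calls required a mean level of 1 CPM or more, a ratio of at least 2-fold in either direction and an interval that excluded a ratio of 1. Across the transcriptome 626 of 12832 compared genes met this rule, which is 4.88%, with 3.37% higher and 1.51% lower. Of the 10 junction genes, 9 were compared, and 0 were called higher and 0 lower. Chrng, at a mean of 0.361 CPM, lay under the level required in both libraries. Without the fold requirement, 1 junction gene (Lrp4) had an interval above a ratio of 1 and 2 (Dok7 and Ache) had an interval below it. That is 3 of 9 genes, where 33.5% of all compared genes had an interval that excluded 1, 16.3% above it and 17.3% below it. The median log2 ratio of the 9 genes was -0.05, against -0.00 over all compared genes, whose quartiles were -0.17 and 0.18. With Chrng, which was not compared, the median of all 10 was -0.10, a set unlike the compared genes. Bulk muscle RNA cannot tell fewer synaptic nuclei from less RNA per nucleus.

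The 4 receptor subunit genes compared lay between -0.43 and 0.12 in log2 ratio and differed widely in level among themselves. Levels of different genes are compared per length, as FPKM (reads scaled to gene length and to library size). The gene lengths behind the deposited FPKM values matched, for all 10 junction genes within 0.1%, the sum of their distinct annotated exons, in which bases that exons of several transcripts share are counted more than once. FPKM is therefore also given per merged exon length, in which each base counts once. Merging left Chrna1, with 1 annotated transcript, as it was and shortened Ache most, by a factor of 1.99.

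Chrna1 (ENSMUSG00000027107, GRCm38 chromosome 2, 73563215 to 73580338, minus strand) encodes the alpha subunit, which carries most of the acetylcholine binding site. It had 300 reads, 18.1 CPM and 4.16 FPKM in Cry2scko, against 339 reads, 18.1 CPM and 4.09 FPKM in Cry2flox. The log2 ratio of Chrna1 was 0.01 (95% interval -0.22 to 0.24), so that a 2-fold difference lies outside what counting error allows for these libraries. Up to 202 bases of the Chrna1 transcript are at least 95% identical to stretches in the transcripts of 64 other genes, and no other junction gene had such a match of 100 bases or more.

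Chrnb1 (ENSMUSG00000041189, chromosome 11, 69784036 to 69795943, minus strand) encodes the beta subunit, through which rapsyn anchors the receptor. It was the highest of the 10 genes in both libraries. Chrnb1 had 575 reads and 10.3 FPKM in Cry2scko, against 599 reads and 9.29 FPKM in Cry2flox. Its log2 ratio was 0.12 (-0.04 to 0.29).

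Chrne (ENSMUSG00000014609, chromosome 11, 70614883 to 70619216, minus strand) encodes the adult epsilon subunit and was second in level. Chrne had 282 reads and 6.05 FPKM in Cry2scko, against 331 reads and 6.16 FPKM in Cry2flox. This gives Chrne a log2 ratio of -0.05 (-0.28 to 0.19).

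Chrnd (ENSMUSG00000026251, chromosome 1, 87190607 to 87200070, plus strand) encodes the delta subunit, which is part of both the fetal and the adult receptor. It had 43 reads and 0.515 FPKM in Cry2scko, against 66 reads and 0.687 FPKM in Cry2flox. The log2 ratio was -0.43 (-1.02 to 0.14), an interval that reaches from just past 2-fold lower to slightly higher. Chrnd stood far under its partner subunits. Its FPKM was 0.124 times that of Chrna1 in Cry2scko and 0.168 times in Cry2flox, and per merged exon length 0.191 times in Cry2scko and 0.260 times in Cry2flox.

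Chrng (ENSMUSG00000026253, chromosome 1, 87204657 to 87212694, plus strand) encodes the fetal gamma subunit and lies 4.59 kb past the end of Chrnd on the same strand. It was the lowest of the 10 genes, with 4 reads and 0.0479 FPKM in Cry2scko, against 9 reads and 0.0936 FPKM in Cry2flox. The log2 ratio of -0.89 (-3.14 to 0.85) leaves differences in both directions within counting error, so none was detectable at this depth.

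Set against the summed FPKM of the 5 subunit genes, 21.0 in Cry2scko and 20.3 in Cry2flox, the subunits stood in the same order in both libraries. Chrnb1 made up 48.8% of that sum in Cry2scko and 45.7% in Cry2flox, and Chrne 28.7% in Cry2scko and 30.3% in Cry2flox. Chrna1, of which each receptor holds more than 1 copy, made up 19.8% in Cry2scko and 20.1% in Cry2flox. Chrnd made up 2.45% in Cry2scko and 3.38% in Cry2flox. Chrng made up 0.228% in Cry2scko and 0.461% in Cry2flox, on 4 and 9 reads. RNA shares are not the proportions of the subunit proteins.

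The gamma and epsilon subunits take the same place in the receptor, so their share was compared within each library, where no scaling between libraries is needed. Chrng held 1.40% (95% Clopper-Pearson interval 0.382 to 3.54) of the reads of the pair in Cry2scko and 2.65% (1.22 to 4.97) in Cry2flox, and these intervals overlap. As FPKM the Chrng share was 0.786% in Cry2scko and 1.5% in Cry2flox. Chrne thus stood 126-fold (48.8 to 466) above Chrng per length in Cry2scko and 65.8-fold (34.3 to 145) above it in Cry2flox. Both libraries have the adult subunit far above the fetal one.

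**Figure D2:**
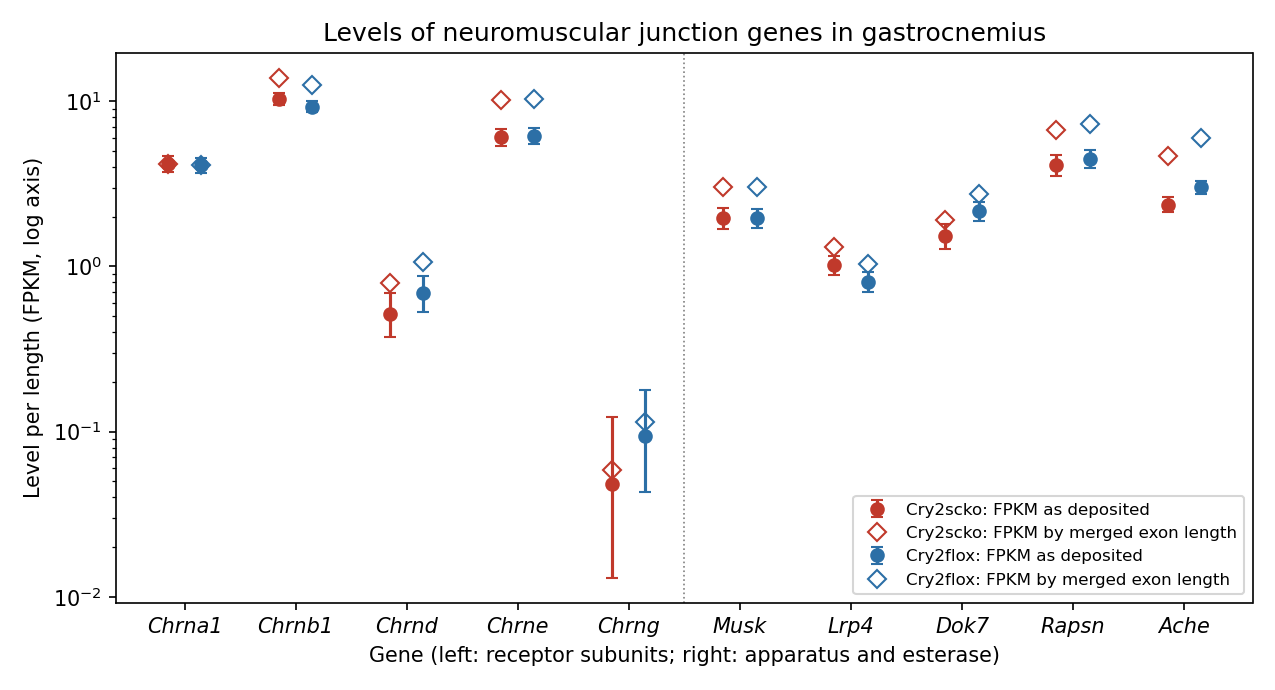
Level per length (FPKM, log axis) of the 10 junction genes in the Cry2scko library (red) and the Cry2flox library (blue). Filled circles are deposited values with 95% counting intervals and open diamonds are FPKM by merged exon length. Chrnb1 is highest at 10.3 and 9.29 FPKM and Chrng lowest at 0.0479 and 0.0936 FPKM, in Cry2scko and Cry2flox in that order.

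The 5 genes of the apparatus and esterase lay between -0.53 and 0.32 in log2 ratio, with Dok7 lowest and Lrp4 highest. Musk (ENSMUSG00000057280, chromosome 4, 58285960 to 58374303, plus strand), the kinase at the centre of the pathway, had 188 reads and 1.95 FPKM in Cry2scko, against 217 reads and 1.96 FPKM in Cry2flox. For Musk the log2 ratio was -0.02 (-0.31 to 0.26).

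Lrp4 (ENSMUSG00000027253, chromosome 2, 91457511 to 91513779, plus strand), the agrin receptor, had 226 reads and 1.01 FPKM in Cry2scko, against 206 reads and 0.802 FPKM in Cry2flox. Lrp4 had the highest ratio of the 10 genes, at a log2 ratio of 0.32 (0.04 to 0.60), which is 1.25-fold. It is a long gene, with 35 merged exons and 10504 exon bases, so its reads rank above those of Musk in Cry2scko while its FPKM ranks below.

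Dok7 (ENSMUSG00000044716, chromosome 5, 35056766 to 35087839, plus strand), the adaptor that activates MuSK from inside the fibre, had 135 reads and 1.52 FPKM in Cry2scko, against 221 reads and 2.16 FPKM in Cry2flox. The log2 ratio was -0.53 (-0.85 to -0.21), a 1.44-fold lower level in Cry2scko and the lowest ratio among the 9 compared junction genes. Of all compared genes, 6.16% had a ratio as low or lower. Even the low end of the interval of Dok7 falls short of 2-fold.

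Rapsn (ENSMUSG00000002104, chromosome 2, 91035620 to 91045729, plus strand) encodes rapsyn, the scaffold that packs the receptors, and lies 412 kb before Lrp4. It had 197 reads and 4.10 FPKM in Cry2scko, against 249 reads and 4.50 FPKM in Cry2flox, a log2 ratio of -0.15 (-0.43 to 0.12). Rapsn shares 4 exon bases with Gm13778 on the opposite strand.

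Ache (ENSMUSG00000023328, chromosome 5, 137287519 to 137294466, plus strand), the esterase of the cleft, had 356 reads and 2.36 FPKM in Cry2scko, against 523 reads and 3.01 FPKM in Cry2flox. Its log2 ratio was -0.37 (-0.57 to -0.17), a 1.29-fold lower level, and 10.4% of all compared genes had a ratio as low or lower. Ache shares 98 exon bases with Gm42456 on the opposite strand, and the strand setting of the counting is not given in the sources used here. Ufsp1, a gene known from synaptic nuclei that starts 162 bases past the end of Ache on the same strand, had 261 reads in Cry2scko and 269 reads in Cry2flox, a log2 ratio of 0.14 (-0.11 to 0.39).

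**Figure D3:**
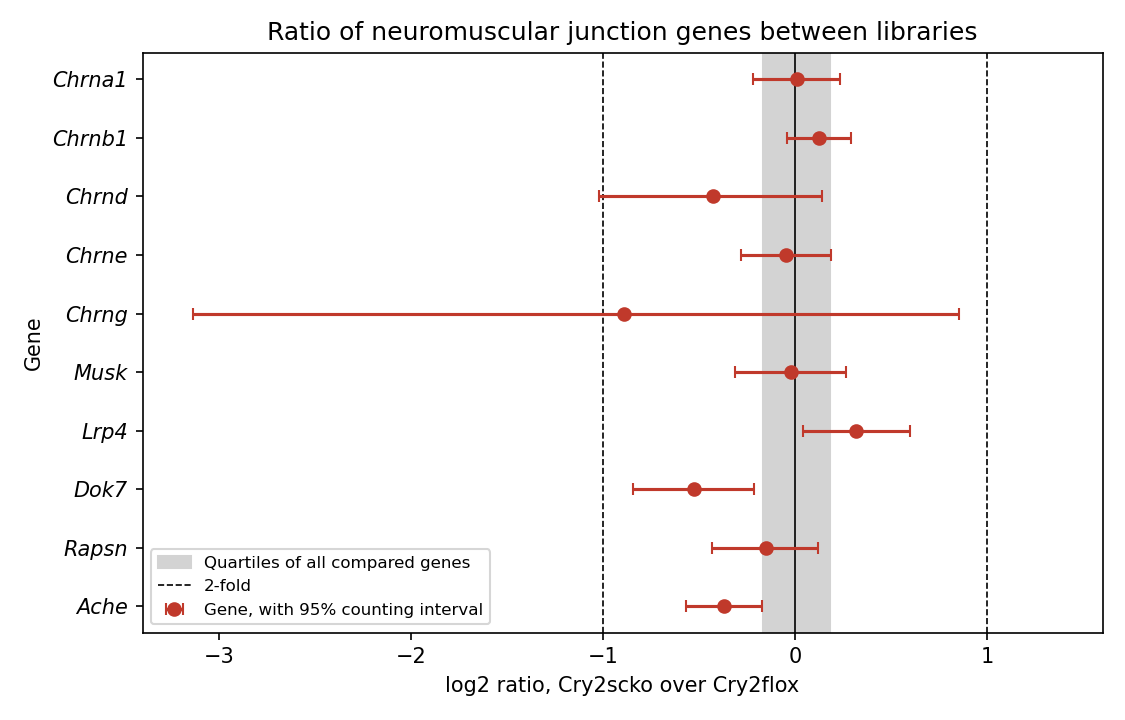
The log2 ratio of Cry2scko over Cry2flox for each junction gene (points) with its 95% counting interval (bars). The grey band spans the quartiles of all compared genes, -0.17 to 0.18, and the dashed lines mark 2-fold. Lrp4, Dok7 and Ache have intervals that exclude 0, and no point lies past 2-fold.

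Ratios of reads between genes of the same library need no scaling, and were taken to Chrna1 for the subunits and to Musk for the others, a choice made after the values had been seen. Of the 8 ratios, 1 differed between the libraries beyond counting error, that of Dok7. There were 0.718 Dok7 reads per Musk read in Cry2scko and 1.02 in Cry2flox, a quotient of 0.705 (0.522 to 0.952). The quotient for Ache was 0.786 (0.616 to 1.003), with an upper bound just above 1, and that for Lrp4 was 1.27 (0.956 to 1.68). Chrnb1 and Chrne had quotients to Chrna1 of 1.08 (0.890 to 1.32) and 0.963 (0.766 to 1.21), which bound any difference. The quotients of Chrnd, 0.736 (0.474 to 1.14), and Chrng, 0.502 (0.112 to 1.82), rest on few reads, and that of Rapsn was 0.913 (0.691 to 1.21).

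The order of levels by FPKM was Chrnb1, Chrne, Chrna1, Rapsn, Ache, Musk, Dok7, Lrp4, Chrnd and Chrng in Cry2scko. In Cry2flox it was Chrnb1, Chrne, Rapsn, Chrna1, Ache, Dok7, Musk, Lrp4, Chrnd and Chrng. Neighbours whose counting intervals overlap were Chrna1 and Rapsn, Ache and Musk, and Musk and Dok7 in Cry2scko. In Cry2flox they were Rapsn and Chrna1, Dok7 and Musk, and Lrp4 and Chrnd. Per merged exon length Chrna1 moved to rank 5 in both libraries, behind Rapsn at 6.66 and Ache at 4.69 in Cry2scko and behind Rapsn at 7.31 and Ache at 5.98 in Cry2flox. Chrnb1 and Chrne stayed first and second, at 13.8 and 10.2 in Cry2scko and at 12.5 and 10.4 in Cry2flox, and Chrng stayed last. On this scale the intervals of Chrnb1 and Chrne overlap in Cry2flox, as do those of Rapsn and Ache, Musk and Dok7, and Chrnd and Lrp4, while in Cry2scko those of Ache and Chrna1 do.

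**Figure D4:**
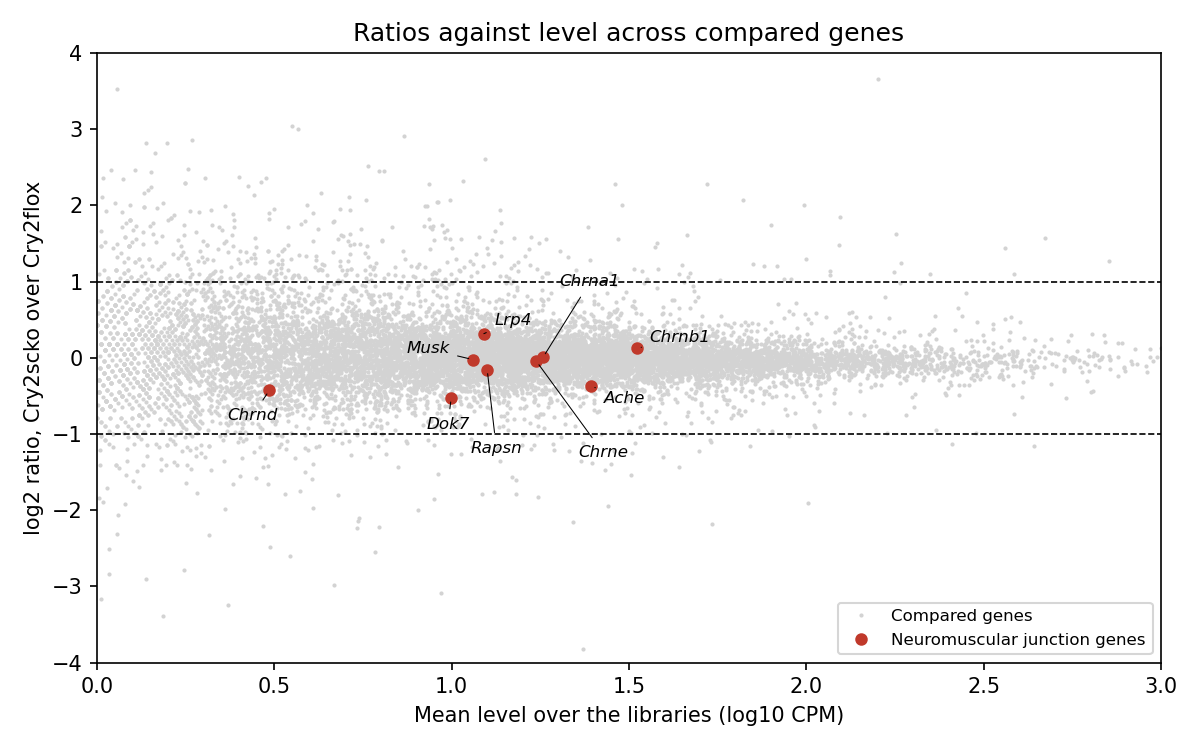
The log2 ratio of Cry2scko over Cry2flox against the mean level (log10 CPM) for compared genes (grey) and the 9 compared junction genes (red, named), with dashed lines at 2-fold. The 9 genes lie between -0.53 (Dok7) and 0.32 (Lrp4). Another 92 genes lie outside the axes and are not drawn.

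The ligands and the synaptic basal lamina, which surround the receptor apparatus, had 0 of 15 compared genes called and a median log2 ratio of -0.15. The interval lay below a ratio of 1 in 6 genes and above it in 0, against 17.3% and 16.3% of all compared genes. For this and each list below, the share called over all compared genes was 4.88%. Agrn, the ligand of LRP4, had 475 reads in Cry2scko and 597 reads in Cry2flox at -0.15 (-0.32 to 0.03), in a tissue that holds muscle agrin besides any from nerve. Colq, the collagen tail that anchors acetylcholinesterase, had 204 reads in Cry2scko and 246 reads in Cry2flox at -0.09 (-0.36 to 0.19). The most abundant members, the heparan sulfate proteoglycan Hspg2 and the laminin-binding nidogen Nid1, were at -0.35 (-0.41 to -0.30) and -0.25 (-0.33 to -0.16). Nrg1, a ligand of ErbB receptors, had 0 reads in both libraries, which allows up to 0.181 CPM in Cry2scko and 0.160 CPM in Cry2flox.

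Inside the fibre, the list of MuSK signalling relay genes had 0 of 18 called and a median of -0.03. Its intervals lay below a ratio of 1 in 5 genes and above it in 0, against 17.3% and 16.3% of all compared genes. Its most abundant members, the GTPases Rac1 and Rhoa that reshape actin, were both at 0.05, with intervals of -0.02 to 0.13 and -0.04 to 0.13. ErbB receptors and the GABP and ETS regulators of synaptic transcription had 0 of 7 called and a median of -0.10. Gabpa, the DNA-binding subunit of GABP, was at -0.10 (-0.25 to 0.05) and its partner Gabpb2 at 0.29 (0.12 to 0.46). Gabpb2 was the only gene of the list with an interval above a ratio of 1. The only gene with an interval below it was the ErbB receptor gene Erbb3, at -0.56 (-0.93 to -0.20). Etv5, an ETS factor enriched in synaptic nuclei, had 275 reads in Cry2scko and 333 reads in Cry2flox at -0.09 (-0.33 to 0.14).

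The postsynaptic cytoskeleton and dystroglycan complex had 0 of 17 called and a median of -0.03. Plec, the linker protein plectin, was at -0.03 (-0.07 to 0.01), and Scn4a, the sodium channel of the junctional folds, at -0.00 (-0.05 to 0.05). Dmd and Dag1, dystrophin and dystroglycan, had the lowest ratios of the list, both at -0.73 and short of 2-fold, while Utrn, the dystrophin relative concentrated at the synapse in adult fibres, was at -0.09 (-0.21 to 0.02). Intervals lay above a ratio of 1 in 2 of the 17 genes and below it in 2, against 16.3% and 17.3% of all compared genes. Those above were of Syne1 at 0.34 (0.21 to 0.46) and Macf1 at 0.19 (0.11 to 0.27), and those below of Dmd and Dag1. Dmd, Dag1, Syne1 and Macf1 fall outside the naming rule and were picked after their values were seen. Glycosylation genes whose mutations cause congenital myasthenia in humans had 0 of 5 called and a median of -0.19, with Gfpt1 at -0.09 and Alg2 at 0.08. Markers of synaptic nuclei, a list that shares Etv5, Colq, Prkar1a and Utrn with others, had 0 of 8 called and a median of -0.09, with Prkar1a, a regulatory subunit of protein kinase A, at 0.03 (-0.04 to 0.09).

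Genes that respond to denervation were split in direction. Of 15 compared, 2 were higher, 1 was lower and 12 were neither under the 2-fold rule, with a median of 0.15. Of all compared genes, 4.88% met that rule. Intervals lay above a ratio of 1 in 8 of the 15 and below it in 4, against 16.3% and 17.3% of all compared genes. Runx1, a transcription factor that protects denervated fibres, had 76 reads in Cry2scko and 41 reads in Cry2flox at 1.07 (0.51 to 1.66). Myh3, embryonic myosin, had 129 reads in Cry2scko and 47 reads in Cry2flox at 1.63 (1.15 to 2.15). Perinatal myosin Myh8 was called in the other direction, with 34 reads in Cry2scko and 85 reads in Cry2flox at -1.13 (-1.76 to -0.55). Fbxo32 and Trim63, which encode ubiquitin ligases of muscle atrophy and had most reads in the list, gave log2 ratios of 0.54 (0.46 to 0.62) and 0.15 (0.07 to 0.22). Myog, which encodes the factor that drives receptor genes after denervation, was at -0.63 (-0.94 to -0.34) and was picked after its value was seen. It is 1 of the 4 genes with an interval below a ratio of 1, while 8 had an interval above it. Of the receptor genes known to respond to denervation, Chrna1 was not called, and Chrng had too few reads to be compared.

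**Figure D5:**
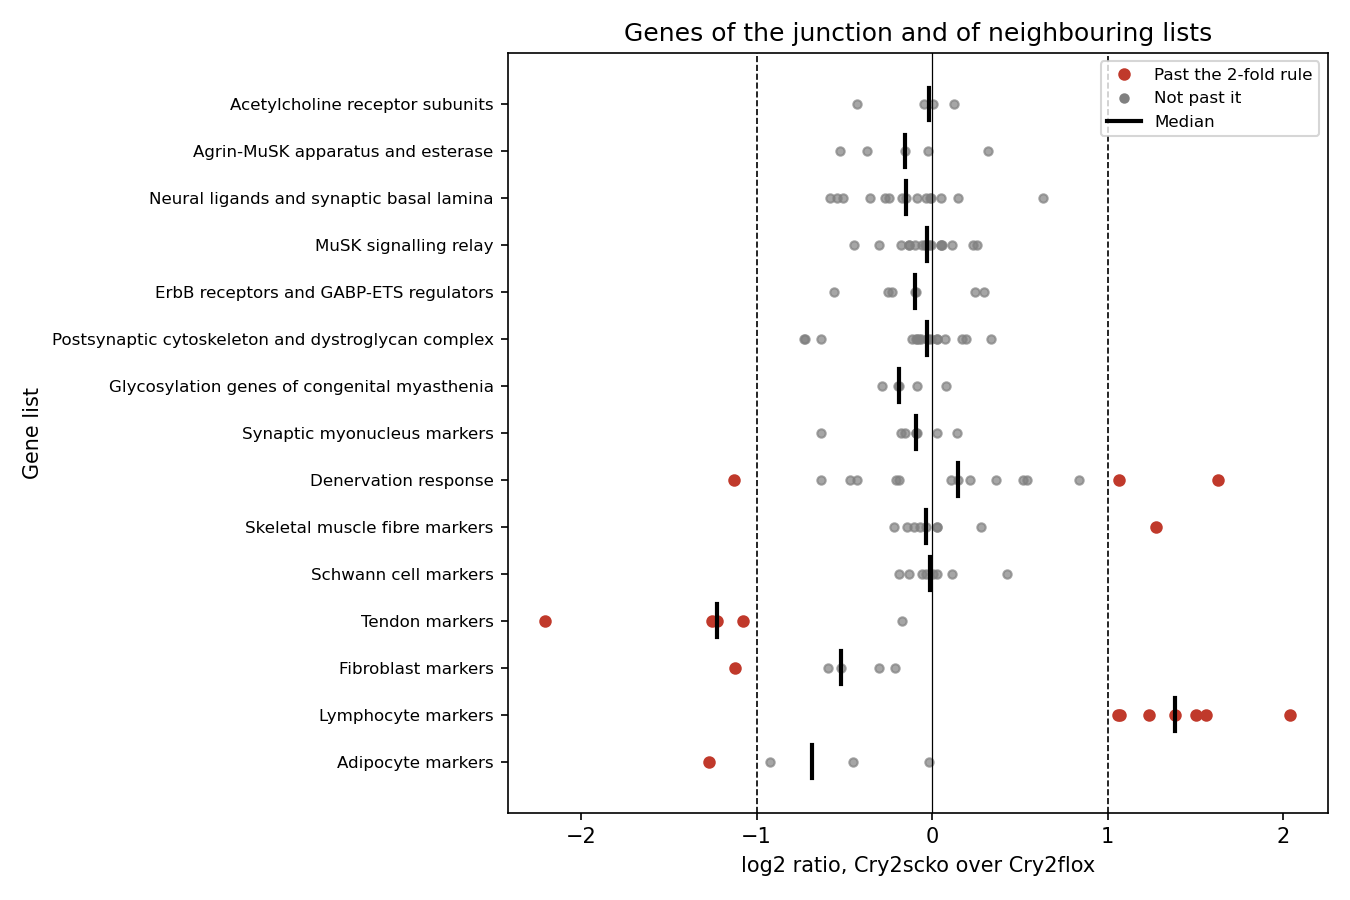
The log2 ratio of Cry2scko over Cry2flox for compared genes of each list, with genes past the 2-fold rule in red, others in grey and the median of the list as a black bar. Both junction lists have 0 red points, while lymphocyte genes lie at 1.06 to 2.04 and tendon genes at -2.20 to -0.17.

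Markers of other cell types differed between the libraries in part. Lymphocyte markers had 7 of 7 called higher, with a summed level of 93.5 CPM in Cry2scko and 34.9 CPM in Cry2flox. Tendon markers had 4 of 5 called lower, with a summed level of 73.3 CPM in Cry2scko and 164 CPM in Cry2flox. Fibroblast markers had 1 of 5 called lower (814 CPM in Cry2scko and 1209 CPM in Cry2flox in sum) and adipocyte markers 1 of 4, with a median log2 ratio of -0.69. The adipocyte sum of 282 CPM in Cry2scko and 290 CPM in Cry2flox is mostly Fabp4, at 274 CPM in Cry2scko and 278 CPM in Cry2flox, while Adipoq was called at -1.27 (-1.94 to -0.67). None of these 4 lists had a marker at 0 reads in either library. Schwann cells, which cover the nerve terminal, had 0 of 8 markers called, a median of -0.01 and summed levels of 189 CPM in Cry2scko and 195 CPM in Cry2flox. Among fibre markers 1 of 9 was called, the slow myosin Myh7, with 16660 reads in Cry2scko and 7822 reads in Cry2flox at 1.27 (1.24 to 1.31). The part of these differences in the ratios of the junction genes was not tested.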

How the data were processed

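The authors deposited 1 table of raw counts (whole reads for each Ensembl gene, with no normalisation) and FPKM values in a table for each library, per the file headers. CASAVA, HISAT2 2.0.4, StringTie 1.3.0 and GRCm38 are named in the submitters' processing notes. The read counter, annotation release and strand setting are not given in the sources used here. Libraries came from total RNA, per the labels' protocols.

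Counts were scaled by TMM (edgeR 4.0.16, R 4.3.3; factors 1.01 for Cry2scko and 0.993 for Cry2flox). The log2 ratio was taken after adding 0.5 reads. For its interval, the Clopper-Pearson bounds on the Cry2scko share of a gene's reads were turned into ratios, and level intervals are exact Poisson intervals. A count of 0 was taken to allow 3 reads. Alternatives used DESeq2 1.42.0 size factors, other scalings, filters, thresholds and lengths. Names, exons and positions came from GENCODE M21 (GRCm38), and promoters from RefSeq. Python 3.11.15, scipy 1.17.1 and BLAST 2.17.0 were used.

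The members and 16 other lists were chosen with earlier results of these data known. From each other list the text may name called genes and the 2 with most reads. Agrn, Colq, Nrg1, Erbb3, Etv5, Ufsp1, Dmd, Dag1, Syne1, Macf1, Myog, Chat, Chrna4 and Chrna9 were named beyond that rule, after values were seen. No likeness of pattern can be measured over 2 libraries.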

Additional observations from a re-analysis of the deposited data

How the results depend on the processing

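No paired analysis was possible because each genotype has 1 library. No junction gene was called under total-count scaling, DESeq2 size factors, totals without mitochondrial and the 20 most abundant genes, 5 reads added, deposited FPKM, no filter, a mean of 5 CPM, a 1.5-fold threshold, or without genes that share exon bases. All 50 recomputed junction gene ratios stayed within their counting intervals. Rescaling moves every gene by the same amount, and the median over all compared genes stayed between -0.01 and 0.03. Under rescaling alone the ratios therefore could not have left their intervals. Of these 50, 2 near 0 changed sign, Chrna1 to -0.00 with DESeq2 size factors and Musk to 0.01 without mitochondrial and abundant genes. Chrng moved most, to -0.39 with deposited FPKM and 0.1 FPKM added. With any fold allowed, a choice made after seeing the data, 1 junction gene was higher and 2 were lower, and over all genes 2087 were higher and 2217 lower, against 432 and 194 in the main comparison. Over all genes there were 789 higher and 396 lower without a filter, 175 and 76 at a mean of 5 CPM, 842 and 558 at 1.5-fold, and 270 and 121 without genes that share exon bases. The genes that entered were 34745 without a filter, 9565 at a mean of 5 CPM and 8028 without genes that share exon bases. The main comparison and the 1.5-fold threshold had 12832. At a mean of 5 CPM the calls fell by a larger part than the genes did. Deposited FPKM with 0.1 FPKM added gave 311 higher and 116 lower, where total-count scaling of the reads gave 449 and 180. Both settings scale by the total count, and the gene lengths behind the FPKM values were the same in both libraries. The settings differ in the amount added, 0.1 FPKM against 0.5 reads. Per merged exon length, 3 of 10 ranks differed in Cry2scko and 6 in Cry2flox, and the Chrng share of the pair was 0.573% in Cry2scko and 1.09% in Cry2flox. Depth limits Chrng and Chrnd most.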

Other observations

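The other acetylcholine receptors and the nerve itself were almost unread in this muscle. Of 11 neuronal nicotinic subunits, 6 had 0 reads in both libraries, and the 11 summed to 1.75 CPM in Cry2scko and 2.40 CPM in Cry2flox. Chrna2 had most reads, 16 in Cry2scko and 22 in Cry2flox. Chrnb2 was second over both libraries together, with 3 in Cry2scko, fewer than the 5 each of Chrna4 and Chrna9 there, and 12 in Cry2flox, at a log2 ratio of -1.65 (-4.28 to 0.07). Of 5 muscarinic receptors, 3 had 0 reads in both libraries and the 5 summed to 0.121 CPM in Cry2scko and 0.320 CPM in Cry2flox, with Chrm3 at 2 reads in Cry2scko and 5 in Cry2flox. Motor neuron and axon genes summed to 1.39 CPM in Cry2scko and 1.44 CPM in Cry2flox over 10 genes, of which 5, among them Chat, the enzyme that makes acetylcholine, had 0 reads in both libraries. Prph, a neuronal intermediate filament, had 14 reads in Cry2scko and 19 in Cry2flox, and Nefh, a neurofilament chain, 7 in Cry2scko and 1 in Cry2flox.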
